A study of Gallus gallus with 10 samples.

Results

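The genes described here are HSPA2 (ENSGALG00000011715) and HSPA8 (ENSGALG00000006512), which encode HSP70 chaperones of the cytosol, and BAG3 (ENSGALG00000009433), which encodes a co-chaperone of HSP70 proteins. They are 3 of the 11324 genes in the deposited counts, chosen by identifier, and all 3 were among the 8585 genes that passed a filter on low counts. The study had listed them as upregulated on these same libraries, in a list made at an adjusted p of 0.1 or less. Calls made here used a stricter rule, with an adjusted p of 0.05 or less and a fold minimum. The difference of the 3 genes between the groups was known when they were chosen. That difference is therefore given as a description, with its size and error and with no p-value.

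HSP70 proteins bind unfolded stretches of other proteins and release them in a cycle driven by ATP. Co-chaperones set the pace of this cycle: J-domain proteins start it, and nucleotide exchange factors, to which the BAG proteins belong, end it. HSPA8, also called HSC70, is the form that unstressed cells make in large amounts. In mammals the symbol HSPA2 names a gene known from male germ cells, whereas the chicken gene of this symbol carries the synonym HSP70 in RefSeq. BAG3 is known in mammals for joining HSP70 to small heat shock proteins and for passing damaged proteins to autophagy. The preoptic anterior hypothalamus (PO/AH) holds temperature-sensitive neurons and takes part in the control of body temperature.

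The mimic group was made up of 3-day-old Cobb strain broiler chicks (Gallus gallus) that received a synthetic mimic of hsa-miR-200a-3p by injection and were killed 6 h later. The naïve group was made up of age-matched Cobb chicks that were not injected. The labels of the naïve libraries carry an earlier time point than the 6 h of the mimic libraries. Each group had 5 libraries of whole PO/AH tissue, and no library of chicks injected with a control mimic was analysed here. The injection, the microRNA and any difference in time of collection therefore cannot be told apart. The site of injection is the PO/AH in the labels and in the study's methods but the third ventricle in its results, and the labels give rearing at 30 °C where the methods give another temperature for chicks of this age. How many chicks went into a library is not stated in the labels or methods, so the spread between libraries may be partly technical.

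The libraries were made by bulk MARS-seq, which tags each transcript near its 3′ end with a unique molecular identifier (UMI) and counts each molecule once. Counts summed to between 3598695 and 4511597 per mimic library and to between 2104121 and 5503185 per naïve library. The libraries are called here by the numbers in the deposited columns, which are 2, 4, 6, 9 and 10 for the mimic and 2, 3, 4, 6 and 7 for naïve chicks. Levels are in CPM, the counts of a gene relative to its library's total after TMM scaling. Naïve library 7 had the smallest total and stood apart from the other naïve libraries: it was the highest of the 5 in 32.7% of the 8585 genes and the lowest in 31.7%. It also held 53 counts of FOLR1, a folate receptor gene on the list of choroid plexus markers, where the other naïve libraries held 4 or fewer and the mimic libraries 1 or 0. Fold changes without it are given for HSPA2, HSPA8, BAG3 and the other chaperone genes. The counts carry identifiers only, so symbols came from the study's supplementary gene tables. Through these tables, markers of neurons, astrocytes and oligodendrocytes had no value here, and the labelled tissue was not checked against them.

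The constitutive chaperone gene HSPA8 was at the 17th highest mean CPM of the 8585 genes, a scale on which a molecule counts once whatever the length of its transcript. Its counts were 16898, 16203, 21550, 18282 and 17296 in mimic libraries 2, 4, 6, 9 and 10, against 19332, 17063, 12740, 19816 and 8168 in naïve libraries 2, 3, 4, 6 and 7. Scaled to library size, these were 4735, 4228, 4883, 4223 and 4480 CPM in the mimic libraries, against 3494, 2992, 3398, 3815 and 4141 CPM in the naïve libraries. All 5 mimic libraries lay above all 5 naïve libraries, but the step was small, since the lowest mimic library (9) was 1.02 times the highest naïve library (7). The means were 4510.0 ± 297 CPM after the mimic and 3568 ± 435 CPM in naïve chicks (SD, n = 5 each). This was a log2 fold change of 0.34 (standard error 0.10), or 1.26-fold. A change of this size lies under the 1.5-fold minimum that a call required, and HSPA8 was not called without that minimum either.

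The naïve libraries differed more among themselves in HSPA8 than the mimic libraries did. They spanned 0.47 on the log2 scale, against 0.21 for the mimic libraries, and the coefficient of variation was 6.58% after the mimic and 12.2% in naïve chicks. Counting error alone gave 0.748% after the mimic and 0.851% in naïve chicks, so nearly all of this spread lay between libraries and not in the number of molecules counted. Without naïve library 7 the log2 fold change was 0.40 (standard error 0.09), and without naïve library 3, the lowest, it was 0.28, the smallest value with any 1 library left out.

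HSPA2 showed a wider step with an overlap between the groups. Its counts were 753, 743, 619, 685 and 419 in mimic libraries 2, 4, 6, 9 and 10, against 462, 461, 348, 495 and 233 in naïve libraries 2, 3, 4, 6 and 7. The levels were 211, 194, 140.3, 158 and 109 CPM in the mimic libraries, against 83.5, 80.8, 92.8, 95.3 and 118 CPM in the naïve libraries. Mimic library 10 lay below naïve library 7, and the other 4 mimic libraries lay above every naïve library. The means were 162 ± 41.1 CPM after the mimic and 94.1 ± 14.7 CPM in naïve chicks (SD, n = 5 each), a log2 fold change of 0.79 (standard error 0.17), or 1.73-fold. HSPA2 was 1316th of the 8585 genes by mean CPM and 91st by the size of its rise.

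The mimic libraries varied most in HSPA2, over a range of 0.96 on the log2 scale, against 0.54 in naïve chicks. The coefficient of variation was 25.3% after the mimic and 15.7% in naïve chicks, where counting error alone gave 4.03% after the mimic and 5.20% in naïve chicks. The overlap rested on these 2 libraries: the groups no longer overlapped when either mimic library 10 or naïve library 7 was left out, and they overlapped when any other library was. The log2 fold change was 0.91 without mimic library 10, 0.88 without naïve library 7 and 0.68 without mimic library 2, which held the highest level. In RefSeq's annotation of another chicken assembly, GRCg7b, HSPA2 lies within the span of PPP1R36. Molecules from PPP1R36 could have been counted with HSPA2 if the 3′ ends of both genes overlapped in the authors' annotation, which was not checked. In GRCg7b, HSPA8 spans 3 small nucleolar RNA genes, and BAG3 overlaps no other gene.

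The co-chaperone gene BAG3 had the clearest step of the 3 genes. Its counts were 292, 251, 278, 317 and 239 in mimic libraries 2, 4, 6, 9 and 10, against 225, 226, 132, 233 and 64 in naïve libraries 2, 3, 4, 6 and 7. The levels were 81.8, 65.5, 63.0, 73.2 and 61.9 CPM in the mimic libraries, against 40.7, 39.6, 35.2, 44.9 and 32.4 CPM in the naïve libraries. Every mimic library lay above every naïve library, and the lowest mimic library (10) was 1.38 times the highest naïve library (6). The means were 69.1 ± 8.38 CPM after the mimic and 38.6 ± 4.84 CPM in naïve chicks (SD, n = 5 each), a log2 fold change of 0.83 (standard error 0.13), or 1.78-fold. BAG3 was 2753rd by mean CPM and 80th by the size of its rise.

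BAG3 had the fewest counts of the 3 genes, and counting error was a larger part of its spread. The coefficient of variation was 12.1% after the mimic and 12.6% in naïve chicks, where counting error alone gave 6.06% after the mimic and 8.53% in naïve chicks. The shallow naïve library 7 held 64 molecules, with an exact 95% Poisson interval of 49.3 to 81.7 that covers counting error only. The log2 fold change was 0.78 without that library, and it lay between 0.77 and 0.89 whichever library was left out.

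**Figure D1:**
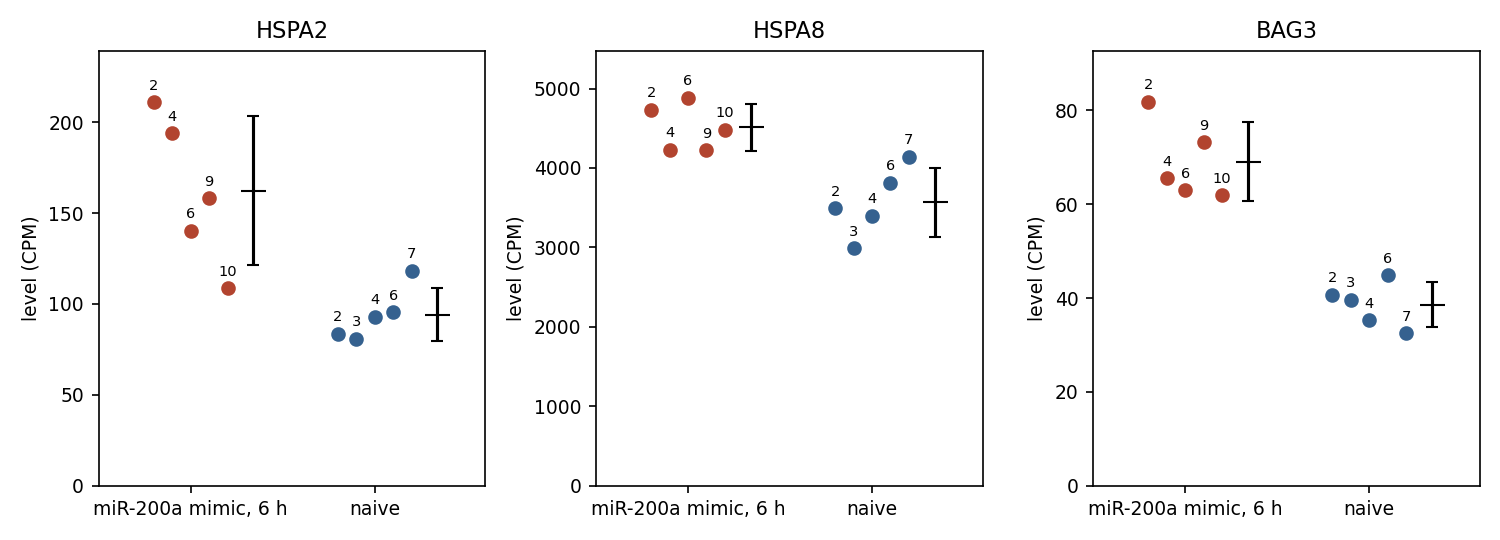
Level of HSPA2, HSPA8 and BAG3 in each library (CPM, y axes from 0), with the 5 mimic libraries left of the 5 naïve libraries, numbered as deposited; bars show the mean and SD of each group. The groups do not overlap for HSPA8 and BAG3, while for HSPA2 mimic library 10 (109 CPM) lies below naïve library 7 (118 CPM).

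Across the 8585 genes tested, 14 were called, which is 0.163%, of which 12 (0.14%) were higher and 2 (0.0233%) lower after the mimic. A call required that edgeR's quasi-likelihood test gave an adjusted p of at most 0.05, that the fold change reached 1.5 and that some library held at least 30 counts. Of the 3 genes described here 1, BAG3, met all of these conditions, and nothing is read from this count because the genes were chosen on the same contrast. With naïve library 2 or naïve library 4 left out BAG3 was not called, and there were 8 and 9 calls over all genes. A fitted rise of 1.5-fold or more was seen in 194 genes or 2.26%, HSPA2 and BAG3 among them. Groups did not overlap, with the mimic libraries higher, in 94 genes or 1.09% of those tested, HSPA8 and BAG3 among them. The median log2 fold change was 0.79 over the 3 genes and 0.00 (−0.0042 before rounding) over all genes tested.

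**Figure D2:**
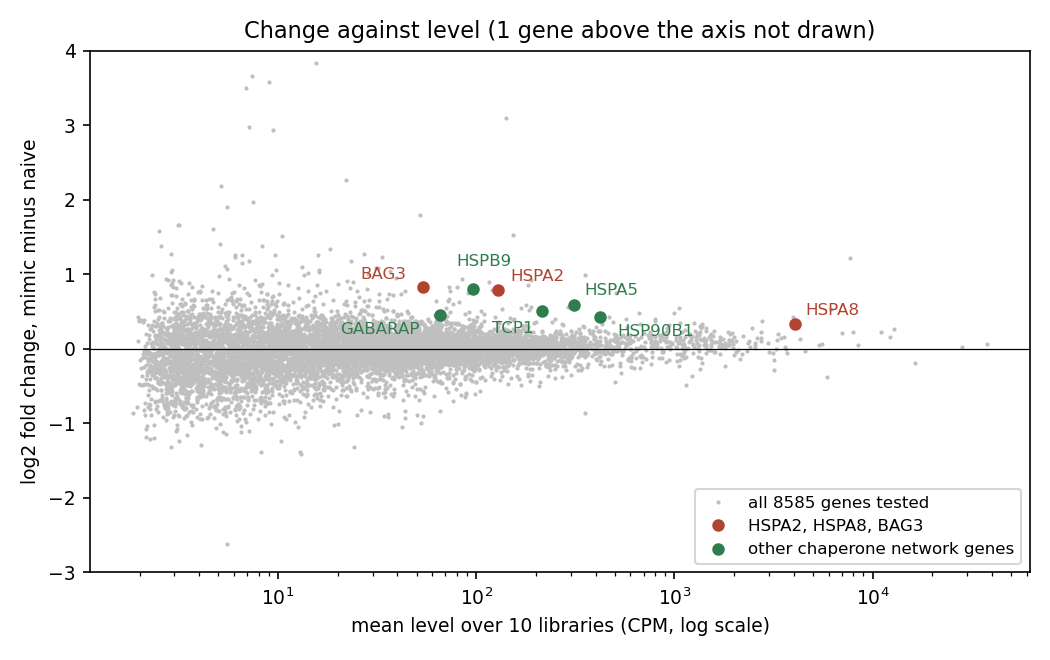
Log2 fold change (mimic minus naïve, y axis) against mean level (CPM, logarithmic x axis) for the 8585 genes tested, shown as gray points (1 gene above the axis is not drawn), with HSPA2, HSPA8 and BAG3 in red and 5 other chaperone network genes in green. All 8 genes lie above 0, from 0.34 for HSPA8 at the far right to 0.83 for BAG3.

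The 3 genes did not keep a fixed proportion to each other between the libraries. Their proportions were followed as log2 ratios within a library, set to a mean of 0 in naïve chicks, and again describe the contrast that chose the genes. The ratio of HSPA2 to HSPA8 was 0.76, 0.80, 0.13, 0.51 and −0.12 in mimic libraries 2, 4, 6, 9 and 10, against −0.14, 0.04, 0.05, −0.07 and 0.12 in naïve libraries 2, 3, 4, 6 and 7. Mimic libraries 2, 4 and 9 were clearly above the naïve range, library 6 was just above it and library 10 was within it. In library 10, HSPA2 thus stood to HSPA8 as it did in naïve chicks, although HSPA8 itself was above every naïve library.

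The ratio of BAG3 to HSPA8 averaged 0.49 ± 0.19 after the mimic and 0 ± 0.29 in naïve chicks (SD, n = 5 each). Of the 5 mimic libraries 4 were above the highest naïve library, and mimic library 6, at 0.25, was below naïve library 3, at 0.29. BAG3 and HSPA2 differed by the least, with a mean ratio of 0.08 ± 0.28 after the mimic and 0 ± 0.36 in naïve chicks (SD, n = 5 each). The groups overlapped in this ratio, which ran from −0.29 to 0.47 after the mimic and from −0.58 to 0.25 in naïve chicks. The −0.58 was naïve library 7, whose BAG3 level rested on 64 molecules, and the other naïve libraries lay between −0.11 and 0.25. Without library 7 the log2 fold change was 0.88 for HSPA2 and 0.78 for BAG3, against 0.79 and 0.83 with it. Their order was also reversed without mimic library 10, at 0.91 for HSPA2 and 0.87 for BAG3. With all libraries their standard errors were 0.17 and 0.13, more than these differences, so no order is read from them. Naïve library 7 was also the lowest naïve library in the ratio of BAG3 to HSPA8, at −0.46.

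**Figure D3:**
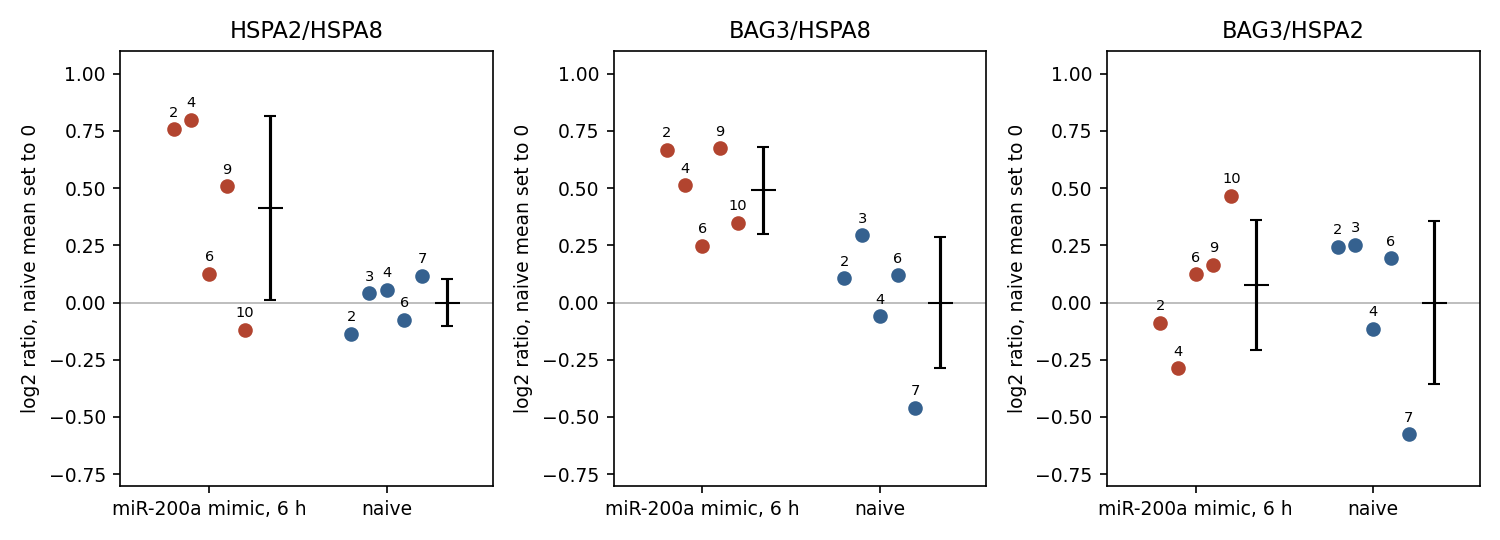
Log2 ratio of HSPA2 to HSPA8, BAG3 to HSPA8 and BAG3 to HSPA2 within each library (y axes, mean of the naïve libraries set to 0), with the mimic libraries left of the naïve libraries and bars for mean and SD. The first 2 ratios are higher in 4 of 5 mimic libraries than in any naïve library, and the BAG3 to HSPA2 ratio overlaps between the groups.

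In naïve library 7 the 3 genes lay at different ends of the naïve range. It had the highest level of HSPA2 and of HSPA8 among the naïve libraries and the lowest level of BAG3. That BAG3 level (32.4 CPM) rested on 64 molecules, and counting error alone could account for its place below naïve library 4 (35.2 CPM). Of the other chaperone network genes, HSPA5, HSP90B1 and HSPB9 were also highest in this library, and TCP1 and GABARAP were lowest in it. There TCP1 rested on 286 counts and GABARAP on 100. Counting error alone could account for the place of both below naïve library 2. Each of these 8 genes thus had its naïve extreme in library 7, as did the 32.7% of all genes tested that were highest there and the 31.7% that were lowest. Among the mimic libraries, library 10 had the lowest HSPA2, BAG3 and HSP90B1, and library 2 had the highest level of each of them. The other chaperone genes did not share this order: library 2 was lowest for HSPB9 and TCP1, and library 9 for HSPA8 and GABARAP. Over all genes tested, library 2 was the highest mimic library in 27.1% and the lowest in 24.2%. Library 10 was the highest in 19.1% and the lowest in 18.8%.

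The 3 genes followed each other less closely once the difference between the groups was taken away. Over the 10 libraries the Pearson correlation of log2 CPM was 0.77 between HSPA2 and HSPA8, 0.80 between HSPA2 and BAG3 and 0.72 between HSPA8 and BAG3. After the mean of each group was taken away it was 0.34 between HSPA2 and HSPA8, 0.21 between HSPA2 and BAG3 and −0.17 between HSPA8 and BAG3. These pooled values join both groups, and 5 libraries in each are too few to tell whether the groups differed in this. HSPA2 and BAG3 varied together over the 5 mimic libraries and in opposite directions over the 5 naïve libraries. The opposite direction rested on naïve library 7, which had the highest HSPA2 and the lowest BAG3 of its group, the latter from 64 molecules. HSPA2 and HSPA8 varied together over the naïve libraries and not over the mimic libraries, which differed little in HSPA8. HSPA8 and BAG3 varied together in neither group. These values describe 10 libraries that share a method and a normalization, and no test was made of them.

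Other genes of the chaperone network were taken from lists of HSP70 and HSP110 proteins, BAG proteins, J-domain proteins, other partners of HSP70, HSP90 and HSP60, small heat shock proteins, the CCT chaperonin, heat shock factors and chaperone-assisted autophagy. Of 99 listed symbols beside the 3 genes, 5 could be matched to an identifier. All 5 came from the study's list of upregulated genes in these libraries, a choice that set a rise and a low p beforehand. They give no independent evidence of a direction, a size or a low p. The BAG proteins other than BAG3, the J-domain proteins and the heat shock factors had no matched identifier and are not described. By edgeR 0 of the 5 were called in either direction, against 0.163% of all genes tested. Before adjustment the p of all 5 was below 0.05, a level that 640 of all genes tested or 7.45% reached, and by DESeq2 at the study's settings 1 was called, against 41 or 0.478% of all genes. Their median log2 fold change was 0.51, against 0.00 over all genes. Nothing is read from these shares and medians, because the 5 genes were chosen on the same contrast.

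HSPA5, the HSP70 protein of the endoplasmic reticulum, was at 365, 326, 356, 469 and 352 CPM in mimic libraries 2, 4, 6, 9 and 10, against 202, 233, 276, 244 and 288 CPM in naïve libraries 2, 3, 4, 6 and 7. The groups did not overlap, with a log2 fold change of 0.59 and a standard error of 0.12 (edgeR, adjusted p = 0.0904). With DESeq2 at the study's settings it was 0.586 with an adjusted p of 0.00627, just past the log2 fold minimum of 0.585, and over the alternatives tried its adjusted p ranged from 0.00627 to 0.296. Without naïve library 7 it was 0.65 (edgeR, adjusted p = 0.0615). HSP90B1, the HSP90 protein of the same compartment, was at 573, 497, 495, 461 and 400.5 CPM in the mimic libraries, against 355, 316, 322, 349 and 463 CPM in the naïve libraries. Its groups overlapped through naïve library 7, with a log2 fold change of 0.43 and a standard error of 0.12 (edgeR, adjusted p = 0.392). Without that library the log2 fold change of HSP90B1 was 0.53 (edgeR, adjusted p = 0.0696, in a range of 0.0696 to 0.677 over its alternatives).

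HSPB9, a small heat shock protein known in mammals from the testis, was at 112, 140.1, 113, 126 and 115 CPM in mimic libraries 2, 4, 6, 9 and 10. In naïve libraries 2, 3, 4, 6 and 7 it was at 51.3, 44.4, 70.7, 66.8 and 120.2 CPM, so that library 7 lay among the mimic libraries. The log2 fold change of HSPB9 was 0.80 with a standard error of 0.22 (edgeR, adjusted p = 0.320). Without naïve library 7 it was 1.06 with an adjusted p of 0.0128 from edgeR, in a range of 0.0128 to 0.670 over its alternatives. TCP1, a subunit of the CCT chaperonin that folds actin and tubulin, was at 252 ± 21.2 CPM after the mimic and 176 ± 27.7 CPM in naïve chicks (SD, n = 5 each). GABARAP, a protein of the autophagosome membrane, was at 76.2 ± 10.2 CPM after the mimic and 55.6 ± 3.54 CPM in naïve chicks (SD, n = 5 each). The log2 fold change was 0.51 for TCP1 (edgeR, adjusted p = 0.143) and 0.45 for GABARAP (edgeR, adjusted p = 0.283). In both all 5 mimic libraries lay above the naïve libraries, as in 1.09% of all genes tested. For TCP1 the step was slight, from 214.65 CPM in naïve library 6 to 215.74 CPM in mimic library 2. This gap was smaller than the difference between the TMM factors of these libraries (1.0301 and 0.9956), so it depends on the scaling. Without naïve library 7 the log2 fold change was 0.46 for TCP1 (edgeR, adjusted p = 0.175) and 0.42 for GABARAP (edgeR, adjusted p = 0.276). Over all alternatives tried, the adjusted p of TCP1 ranged from 0.0153 (DESeq2, all libraries) to 0.493 (edgeR, without naïve library 2). That of GABARAP ranged from 0.0481 (DESeq2, all libraries) to 0.633 (edgeR, without naïve library 2).

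Genes were then ranked by how closely their log2 CPM followed each of the 3 genes over the 10 libraries, as a description with no test. Of the 8585 genes tested 121 had a symbol. Many of these symbols come from lists of genes that had been selected as changed in these libraries. For HSPA2 the closest gene with a symbol was HSP90B1, with a Pearson correlation of 0.93 over 10 libraries and 0.83 after the group means were taken away. It was 6th of all other genes tested, behind 5 genes without a symbol, and 117th after the group means were taken away. The next were cPAD2, a peptidylarginine deiminase gene, at 0.90 and C1S, a complement protease gene, at 0.87. After the group means were taken away these had 0.67 and 0.57 and were 630th and 1097th. Of the other chaperone network genes, HSPB9 had 0.83 with HSPA2 (0.54 without the group means), GABARAP 0.82 (0.40), HSPA5 0.77 (0.25) and TCP1 0.58 (−0.33).

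**Figure D4:**
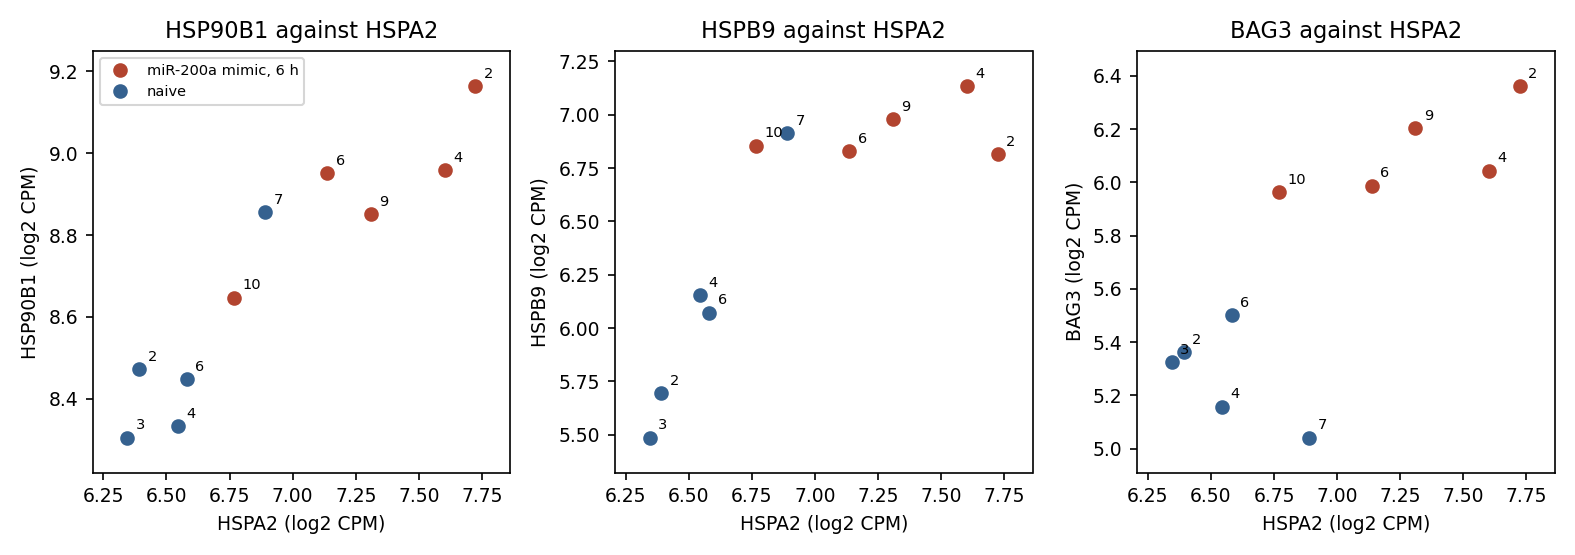
HSP90B1, HSPB9 and BAG3 (y axes) against HSPA2 (x axes), all in log2 CPM, with 1 point per library numbered as deposited, red for the mimic and blue for naïve chicks. Naïve library 7 lies at the high end of the naïve libraries for HSP90B1 and HSPB9 and at the low end for BAG3.

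For HSPA8 the closest genes with a symbol were IL2RG, an interleukin receptor chain, at 0.93, C1QC, a chain of complement C1q, at 0.92 and P2RY13, a purine receptor of microglia, at 0.91. After the group means were taken away these were 0.82, 0.76 and 0.73, and the genes were 85th, 201st and 289th of all other genes. Of the chaperone network genes, HSP90B1 had 0.88 with HSPA8 (0.68 without the group means) and HSPB9 0.86 (0.64). HSPA5 had 0.74 (0.18), GABARAP 0.68 (−0.04) and TCP1 0.56 (−0.38). For BAG3 the closest were STAT6, a transcription factor downstream of interleukin-4, at 0.95, AVD, which encodes avidin, at 0.93 and CSF1, a growth factor of macrophages and microglia, at 0.92. These were the 3 closest of all other genes tested. After the group means were taken away STAT6 and CSF1 had 0.75 and 0.81 with BAG3 and were 59th and 26th of all other genes. AVD then had 0.19 and was 2741st. GABARAP was the next closest to BAG3, at 0.90, and without the group means it had 0.54 and was 472nd. The other chaperone network genes followed BAG3 less closely. TCP1 had 0.84 (0.23 without the group means), HSPA5 0.77 (−0.17), HSP90B1 0.72 (0.005) and HSPB9 0.61 (−0.51).

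Markers of microglia differed between the groups, and not all in the same direction. Of 9 listed markers 6 had an identifier, and their summed level was 158 to 222 CPM in the mimic libraries and 80.5 to 117 CPM in the naïve libraries. C1QA, C1QB, C1QC, P2RY13 and SPI1 were higher in every mimic library than in any naïve library, and TREM2 was lower in every one, where 1.09% of all genes tested were higher without overlap and 0.513% were lower. C1QB (adjusted p = 0.00346, edgeR) and C1QC (adjusted p = 0.0460, edgeR) passed the test, which called 0.163% of all genes, and the other 4 did not (adjusted p from 0.0633 to 0.320, edgeR). All 6 came from the study's own lists of changed genes in these libraries, a choice that set a difference and a low p beforehand. Nothing is therefore read from these shares and p-values. The part of these cells in the levels of HSPA2, HSPA8 and BAG3 was not tested, and in whole tissue more cells of a type and more RNA per cell cannot be told apart.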

How the data were processed

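PO/AH RNA was analysed in 5 mimic and 5 naïve libraries, each made from 15 ng of RNA. Per the study's methods, the authors used cutadapt for trimming, STAR for mapping to 3′ gene ends of the galGal5 build and HTSeq for counting UMIs, with a correction for saturation (versions not given in the sources used here). Analysed were the deposited UMI counts, and 10 other per-sample columns, which hold normalized counts, were not used. A deposited list of settings for the authors' comparison was left aside. Groups were taken from the condition in each column name.

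The test was edgeR 4.0.16's robust quasi-likelihood test in R 4.3.3, two-sided, after filterByExpr (minimum count 10) and TMM normalization. Symbols were taken from the study's tables by identifier, which named 121 of the genes tested. P-values were adjusted by Benjamini-Hochberg over 8585 genes. The standard error is the log2 fold change divided by the root of the F statistic. Log2 CPM used a prior count of 2. The script was tested on simulated data. Alternatives were DESeq2 1.42.0 at the study's settings, limma-voom (limma 3.58.1), other factors, filters and thresholds, and leaving out each library. DESeq2 was run on the same 8585 filtered genes, whereas the study's methods name no such filter before the test. The scaling of levels was added after seeing the data.

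The genes, lists and tests were chosen with earlier results of these data known. Named were the 3 genes, the chaperone genes with an identifier and the 3 genes with a symbol most like each. Promoter motifs and proteins were not analysed here.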

Additional observations from a re-analysis of the deposited data

Results flagged for a closer look

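Levels of HSPA2, HSPA8, BAG3, the 5 other chaperone network genes and the genes most like each of the 3 were checked in each group of 5 for a library far from the others, by Dixon's test at a ratio of 0.71, and chance alone gives about 1 in 20 such groups. Of the 32 groups checked 4 had one. HSPA5 was at 468.5 CPM in mimic library 9, where the next mimic library held 365 CPM, and HSP90B1 was at 463 CPM in naïve library 7, where the next naïve library held 355 CPM. In mimic library 2, cPAD2 was at 14.3 CPM and C1S at 23.3 CPM, where the next mimic libraries held 7.62 and 11.8 CPM. HSPA2, HSPA8 and BAG3 had no such library in either group.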

How the results depend on the processing

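No paired analysis was possible because the numbers in the deposited columns differ from those of the labels. The mimic and naïve groups were also different chicks, and neither the labels nor the study's methods describe a pairing between them. The log2 fold changes of HSPA2, HSPA8 and BAG3 stayed positive and moved by less than their standard errors (0.17, 0.10 and 0.13) in all 16 alternatives each. With 1 library left out they ranged from 0.68 to 0.91, from 0.28 to 0.40 and from 0.77 to 0.89, and under other tools, factors and filters from 0.78 to 0.80, from 0.32 to 0.35 and from 0.81 to 0.84. With library totals only, RLE or upper-quartile factors for the levels, which were chosen after seeing the data, HSPA8 and BAG3 still did not overlap between the groups and HSPA2 did. Against 14 calls over all genes, DESeq2 at the study's settings gave 41 (36 higher, 5 lower), a minimum of 30 counts in every library 4, and an adjusted p of 0.1 gave 29. With 1 library left out there were 8 to 20, and 8, 9 and 9 without naïve library 2, 4 or 6. Of HSPA2, HSPA8 and BAG3, 1 was called, 2 with DESeq2 or at an adjusted p of 0.1, and 0 to 2 with 1 library left out: 0 without naïve library 2 or 4 and 2 without mimic library 10. Of the 5 other chaperone network genes, 0 were called, and 1 (HSPA5) with DESeq2 or at an adjusted p of 0.1. With 1 library left out 0 to 1 of them were called, and the 1 was HSPB9 without naïve library 7. With a prior count of 0.5, 2 of the 3 genes most like HSPA2 and all 3 for HSPA8 and BAG3 were kept. The cause of these shifts was not tested.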
